A study of Mus musculus with 36 samples.

Results

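The HoxA cluster was examined in ATAC-seq peak lists of C57BL/6 bone marrow cells, taken from mice of 10 weeks (young) or 20 months (aged) for which the labels give no other genotype or treatment. ATAC-seq uses a transposase to insert adapters into open chromatin, so a called peak marks accessible DNA. The 8 fractions, sorted by surface markers, comprised stem cells (HSCs), 4 kinds of multipotent progenitor (MPP1 to MPP4) and the progenitors of granulocytes and macrophages (GMPs), of megakaryocytes and erythrocytes (MEPs) and of lymphoid cells (CLPs). HSCs had 4 libraries per age and each other fraction had 2 per age, 36 in all, each from 20000 cells. The study's overview of the experiment describes pooling of marrow within an age ahead of the sort, and its text calls the HSC libraries biological replicates. Libraries of 1 age may therefore share a pool, and p-values measure the spread between libraries, not between mice. Joining peaks across libraries wherever they shared 1 bp or more gave 105005 regions. A region was kept where its centre lay nearest to a transcription start site (TSS) of Hoxa2, Hoxa3, Hoxa4, Hoxa5, Hoxa6, Hoxa7, Hoxa9, Hoxa10 or Hoxa11 among all protein-coding TSSs, which left 10 regions. The nearest gene need not be the gene a region acts on.

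Hox genes encode homeodomain transcription factors and lie in clusters, where their order along the chromosome follows the order in which they are used along the body axis. In blood, Hoxa9 and Hoxa10 are known for their part in the self-renewal of stem and progenitor cells, acting with the cofactors of the MEIS and PBX families, and the cluster is generally turned down as cells mature. The methyltransferase encoded by Kmt2a keeps the cluster active, and Polycomb proteins such as those encoded by Ezh2, Eed and Suz12 repress it.

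The 10 regions spanned 54.997 kb of chromosome 6 (mm10), with all the genes on the minus strand. In the order of their coordinates, from the Hoxa4 side to the Hoxa11 side, they are called here Hoxa4, Hoxa5, Hoxa3, Hoxa7-1, Hoxa7-2, Hoxa9, Hoxa10-1, Hoxa10-2, Hoxa11-1 and Hoxa11-2 after the gene with the nearest TSS. Hoxa2, which patterns the hindbrain and its neural crest, and Hoxa6, an axial patterning gene, had no region in any library. Of the 10, 5 had their centre between 1000 bp upstream and 100 bp downstream of a TSS of their gene, namely Hoxa4, Hoxa7-1, Hoxa9, Hoxa11-1 and Hoxa11-2.

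**Figure D1:**
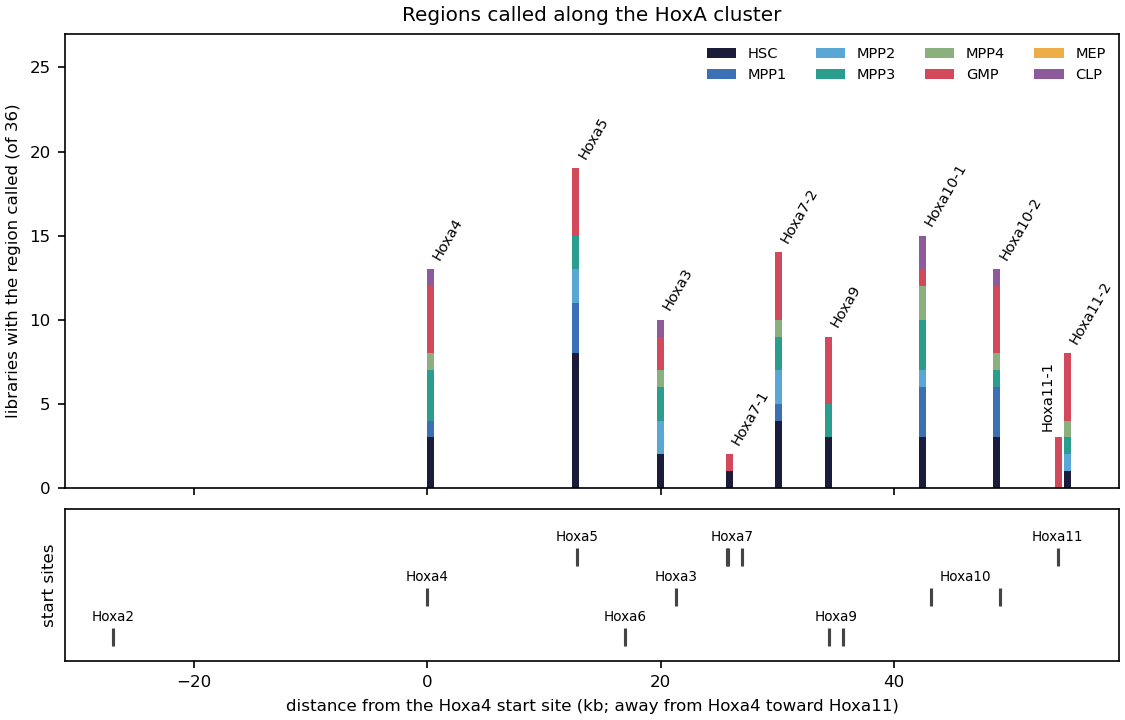
The bars give the number of libraries, of 36, in which each region was called, stacked by fraction and placed by distance in kb from the Hoxa4 start site, with the start sites of the member genes marked underneath. The Hoxa5 bar is the highest at 19 libraries, the Hoxa7-1 bar the lowest at 2, and no bar stands at Hoxa2 or Hoxa6.

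Sequences are shown for 4 of the regions discussed below, read from RefSeq GRCm38, the assembly of mm10, on the minus strand, 5′ to 3′. Summit windows over untranslated regions, among them that of Hoxa9, are not shown. Capitals mark matches to the motifs searched. The Hoxa5 stretch is the part of that region upstream of the start site, chr6:52204588-52204711. The other 3 are the 201 bp around the median summit, at chr6:52234047-52234247 for Hoxa10-1, chr6:52245827-52246027 for Hoxa11-1 and chr6:52246481-52246681 for Hoxa11-2.
Hoxa5 upstream: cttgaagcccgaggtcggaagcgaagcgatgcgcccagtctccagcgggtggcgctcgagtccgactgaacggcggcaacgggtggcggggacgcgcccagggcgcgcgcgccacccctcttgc
Hoxa10-1: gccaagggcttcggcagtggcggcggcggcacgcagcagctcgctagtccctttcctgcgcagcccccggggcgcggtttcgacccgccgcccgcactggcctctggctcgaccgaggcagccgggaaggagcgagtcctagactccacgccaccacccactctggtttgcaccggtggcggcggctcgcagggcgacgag
Hoxa11-1: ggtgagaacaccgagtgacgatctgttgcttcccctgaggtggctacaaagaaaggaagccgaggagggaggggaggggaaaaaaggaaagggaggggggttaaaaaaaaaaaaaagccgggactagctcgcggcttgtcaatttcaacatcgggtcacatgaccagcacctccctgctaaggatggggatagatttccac
Hoxa11-2: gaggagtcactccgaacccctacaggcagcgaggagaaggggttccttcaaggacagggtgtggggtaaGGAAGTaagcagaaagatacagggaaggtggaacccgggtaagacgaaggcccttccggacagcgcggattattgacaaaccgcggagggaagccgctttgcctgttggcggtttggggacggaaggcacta
The Hoxa5 stretch is 124 bp long, with a GC content of 73.4% and 19 CpG sites. The Hoxa11-1 stretch holds a purine-rich run, and the Hoxa11-2 stretch has 1 match, to the ETS motif.

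The libraries differed in how much was called, which bears on every count of calls. GMP libraries had 52576 to 63288 peaks, MEP libraries 9581 to 11041, and all others 27087 to 40157. The median fold enrichment over all summits of a library was 9.62 to 10.1 in GMPs, 6.42 to 6.58 in MEPs and 7.55 to 8.45 elsewhere. Fold enrichment is the peak caller's ratio of signal over local background at a summit, and here the highest summit of a region is used. The GMP marker regions at Mpo, Elane and Cebpe, which encode granule enzymes and a granulocyte transcription factor, were called in 4, 4 and 3 of 4 GMP libraries and in 1, 0 and 0 of the others. The HSC markers did not set HSCs apart, since Mecom was called in 0 of 8 and Procr in 4 of 8 HSC libraries, both in 3 of 4 GMP libraries, and Hlf in 8 of 8 HSC libraries but in 33 of all 36. Of the erythroid markers in MEPs, Gata1 and Klf1 were called in 1 of 4 libraries each and Epor in 4 of 4, while Klf1 and Epor were called in 33 and 35 of all 36. Of the lymphoid markers, Il7r was called in 4 of 4 CLP libraries and also in 4 of 4 MPP4 and GMP libraries, and Dntt and Ebf1 in 3 of 4 CLP libraries and in 31 and 29 of all 36. Flt3, the MPP4 marker, was called in all libraries outside MEP. Calls at these markers thus bear out the label of the GMPs and did not set the other fractions apart as labelled. Mecom in HSCs, and Gata1 and Klf1 in MEPs, were mostly not called where the labels would place them. Klf1 went against the MEP label most clearly, with calls in all 32 libraries outside MEP, and passed as called less often in MEPs than in HSCs and MPP1 to MPP4 (Fisher's exact test, adjusted p = 0.0134), in lists that are short over all regions too.

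HoxA regions were called in 106 of the 360 possible combinations of region and library, or 29.4%, beside 30.8% over all regions. A HoxA region was called in a median of 11.5 libraries, beside 5 over all regions. The 5 HoxA regions with their centre in a promoter had a median of 8, beside 32 over all 12224 such regions. No HoxA region was called in all 36 libraries, beside 5.08% of all regions and 30.2% of promoter regions. Fold enrichment at the called regions ran from 3.76 to 19.8 with a median of 6.28. Only 19 of the 106 calls stood above the 50th percentile of fold enrichment in their own library, and 11 of these were in GMPs. The median percentile of the HoxA calls was 25.4, and 38 of the 106 had a −log10 q-value of at least 10.

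**Figure D2:**
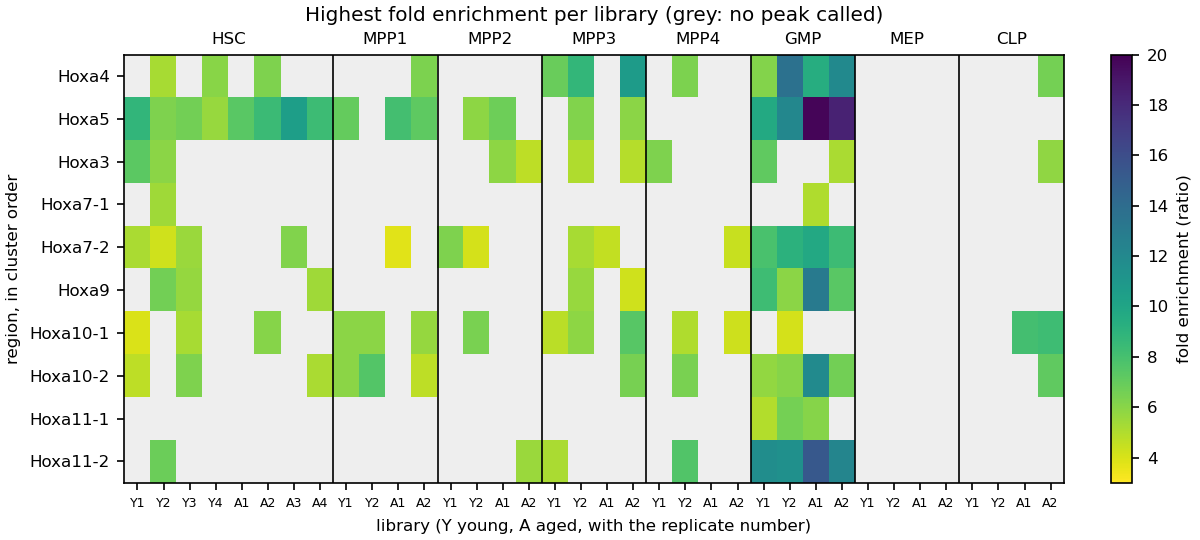
Each cell gives the highest fold enrichment (ratio, colour scale from 3 to 20) of a HoxA region in 1 library, with regions in cluster order and libraries grouped by fraction, and grey cells had no peak. The GMP columns are filled for most regions, the MEP columns are empty, and the Hoxa5 row is filled in all 8 HSC libraries.

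The number of HoxA regions called differed widely between fractions. GMP libraries had 8 and 8 regions when young and 8 and 7 when aged. Young HSC libraries had 5, 7, 5 and 2 regions and aged HSC libraries 1, 3, 2 and 3. The MPP3 libraries had 3 and 6 when young and 1 and 6 when aged. MPP1 libraries had 2 to 4, MPP2 libraries 1 to 3 and MPP4 libraries 0 to 4. CLP libraries had 0 and 0 when young and 1 and 4 when aged, while over all regions young CLP libraries (29046 and 33224) and aged ones (26301 and 33257) overlapped. No MEP library had any HoxA region. GMPs did not overlap the MPPs, MEPs or CLPs in this count, while 1 young HSC library reached the lowest GMP value of 7. Over all regions GMPs stood apart too, with 50850 to 61449 of the 105005 regions called, beside at most 38676 in any other library.

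**Figure D3:**
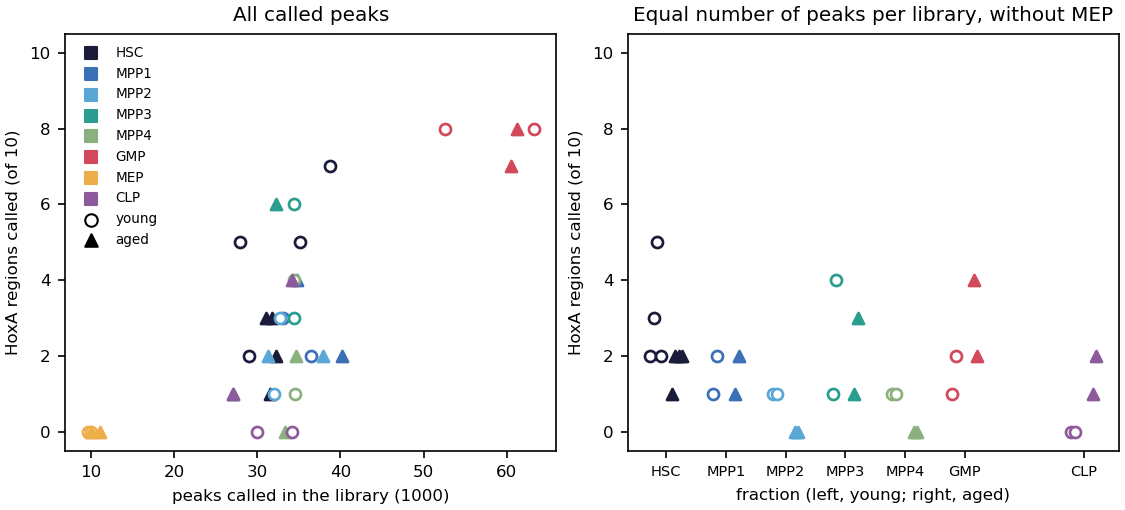
The left panel plots the HoxA regions called in a library (of 10) against its number of peaks (in units of 1000), and the right panel gives the same count when only the strongest 27087 peaks of each library outside MEP are used. The 4 GMP libraries stand apart at the upper right of the left panel and lie between 1 and 4 regions in the right panel, within the range of the HSC libraries.

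This order moved with the number of peaks. Relative to the number of peaks (values per 10000 peaks), GMPs had 1.31 ± 0.153 HoxA regions (SD, n = 4) and HSCs 1.07 ± 0.552 (SD, n = 8). With the strongest 27087 peaks of each library, the size of the smallest library outside MEP, the mean count was 2.25 ± 1.26 in GMPs (SD, n = 4), 2.38 ± 1.19 in HSCs (SD, n = 8) and 2.25 ± 1.5 in MPP3 (SD, n = 4). With the strongest 9581 peaks, the size of the smallest MEP library, no HoxA region was called in any of the 36 libraries. At this size the fractions could not be compared, since each library was at 0. None of the 10 HoxA regions was called in an MEP library, beside 86.7% of all regions and 48.0% of promoter regions that were not.

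The question of which regions of the cluster differed between fractions was addressed with Fisher's exact test on calls (two-sided, p-values adjusted over all 105005 regions, threshold 0.05). Regions at Hoxa9, Hoxa11-1 and Hoxa11-2 were called more often in GMPs than in HSCs and MPP1 to MPP4, 3 of 10. Over all regions 22.9% were called more often in GMPs and 2.05% less often, so 3 of 10 is near the background, and 1 of the 3, Hoxa11-1, was found through its GMP calls alone. With equal numbers of peaks per library outside MEP, 1 of the 3 still passed, as given with each region. The share of all regions at that setting was not counted.

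Hoxa11, known from limb, kidney and reproductive tract development, had both of its regions in the introns of its antisense gene Hoxa11os on the plus strand. The Hoxa11-2 region (chr6:52246429-52246831), 820 bp upstream of the TSS, was called in 4 of 4 GMP libraries and in 4 of 24 HSC and MPP libraries (Fisher's exact test, adjusted p = 0.0158). Its fold enrichment was 11.6 and 11.5 in young GMPs and 15.3 and 12.3 in aged GMPs. The 4 calls elsewhere were at 6.81 in young HSC replicate 2, 5.58 in aged MPP2 replicate 2, 5.18 in young MPP3 replicate 1 and 7.601 in young MPP4 replicate 2. The lowest GMP value thus lay above the highest value in any other fraction. GMP libraries also had the highest median fold enrichment over all their summits, so the gap is given as a description. Of the 13884 regions called in all HSC and GMP libraries, 67.3% passed the threshold in limma as higher in GMPs than in HSCs and 5.82% as lower. The Hoxa11-2 region is not among them. The share of all regions with such a gap was not counted. With 27087 peaks per library outside MEP, a setting chosen after seeing the data, the Hoxa11-2 region alone still passed (Fisher's exact test, adjusted p = 0.0463). It was then called in 3 of 4 GMP libraries and, among HSCs and MPPs, in 1 MPP4 library. The share of all regions that passed at this setting was not counted. Without young GMP replicate 2 its adjusted p was 0.0509.

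The Hoxa11-1 region (chr6:52245828-52245982), 95 bp upstream of the same TSS, was the only one of the 10 that was called in a single fraction, while over all regions 39.4% were called in 1 fraction alone and 24.1% in GMPs alone. It was called in 3 of 4 GMP libraries, at 4.96 and 6.53 in young and 6.08 in aged replicate 1, and in 0 of 24 HSC and MPP libraries. It entered the set of regions through its GMP calls alone, so its count among the 3 that passed restates how it was found and is given as a description. These were weak summits, at the 5.09th to 21.04th percentile of their libraries. At 27087 peaks per library it was called in no library, so its call in GMPs rests on the weaker peaks of the larger lists.

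Hoxa9, the member best known for stem cell self-renewal and for its overexpression in acute leukemia, had 1 region (chr6:52225929-52226315), over the 5′ untranslated region with its centre 67 bp downstream of the TSS. It was called in 4 of 4 GMP libraries and in 5 of 24 HSC and MPP libraries (Fisher's exact test, adjusted p = 0.0262). The GMP values were 8.28 and 5.99 in young and 12.97 and 7.32 in aged libraries. The calls in HSCs were at 6.62 and 5.69 in young replicates 2 and 3 and 5.44 in aged replicate 4, and those in MPP3 at 5.62 and 4.22 in replicate 2 of each age. The GMP and HSC values overlapped. The Hoxa9 call was lost when any 1 GMP library was left out (adjusted p 0.0710 to 0.0779) and with 27087 peaks per library.

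Hoxa5, a gene of lung and axial skeleton development, had the region called most often. The region (chr6:52204234-52204711) covered the TSS, with its centre 114.5 bp downstream of it in the 5′ untranslated region, and was called in 19 libraries. The calls fell in 8 of 8 HSC, 3 of 4 MPP1, 2 of 4 MPP2, 2 of 4 MPP3, 0 of 4 MPP4, 4 of 4 GMP, 0 of 4 MEP and 0 of 4 CLP libraries. It was the only HoxA region called in all HSC libraries. HSCs against MPP1 to MPP4 (8 of 8 against 7 of 16) gave p = 0.00950 in Fisher's exact test, and 0.259 after adjustment over all regions. Over all regions 0.155% were called more often in HSCs and 0.516% less often, and none of the HoxA regions passed.

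In fold enrichment, the Hoxa5 region had 8.82, 6.27, 6.62 and 5.65 in young HSC replicates 1 to 4 and 7.33, 8.43, 10.503 and 8.34 in aged ones. Both ages overlapped, since young replicate 1 exceeded 3 of the 4 aged libraries. The means were 6.84 ± 1.38 (SD, n = 4) and 8.65 ± 1.33 (SD, n = 4), a log2 difference of 0.35 ± 0.17 (SE; 95% interval -0.02 to 0.72) with an adjusted p of 0.689 in limma. Of the 17340 regions called in all HSC libraries, 0% passed higher and 0% lower in aged HSCs, with 549 and 751 at an unadjusted p under 0.05. Replicates 1 and 2 alone gave a log2 difference of 0.08 and replicates 3 and 4 alone 0.61, neither past the threshold.

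GMPs had the highest values of the Hoxa5 region, 9.70 and 12.1 in young and 19.8 and 18.4 in aged libraries. The mean was 14.996 ± 4.86 (SD, n = 4), beside 7.75 ± 1.59 (SD, n = 8) in HSCs. Only the lowest GMP value fell below the highest HSC value. With age as a covariate, log2 fold enrichment was higher in GMPs by 0.92 ± 0.15 (SE; 95% interval 0.61 to 1.22, limma adjusted p = 2.56e-05). Of the 13884 regions called in all HSC and GMP libraries, 67.3% passed the threshold as higher and 5.82% as lower in GMPs. The median log2 difference over all 13884 was 0.53. Centred on each library's median, the Hoxa5 difference was 0.35 (adjusted p = 0.0304). When the mean over summits was used in place of the highest summit, it was 0.62.

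Within their own libraries, the Hoxa5 summits in HSCs stood between the 18.9th and the 71.8th percentile of fold enrichment. In GMPs they stood at the 47.6th and 63.6th percentiles in young and the 87.0th and 85.1st in aged libraries. The MPP calls lay within the range of the HSC values. MPP1 had 7.04 in 1 young library and 8.11 and 7.22 in both aged ones, MPP2 had 5.87 in 1 young and 6.74 in 1 aged library, and MPP3 had 6.23 and 5.96.

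**Figure D4:**
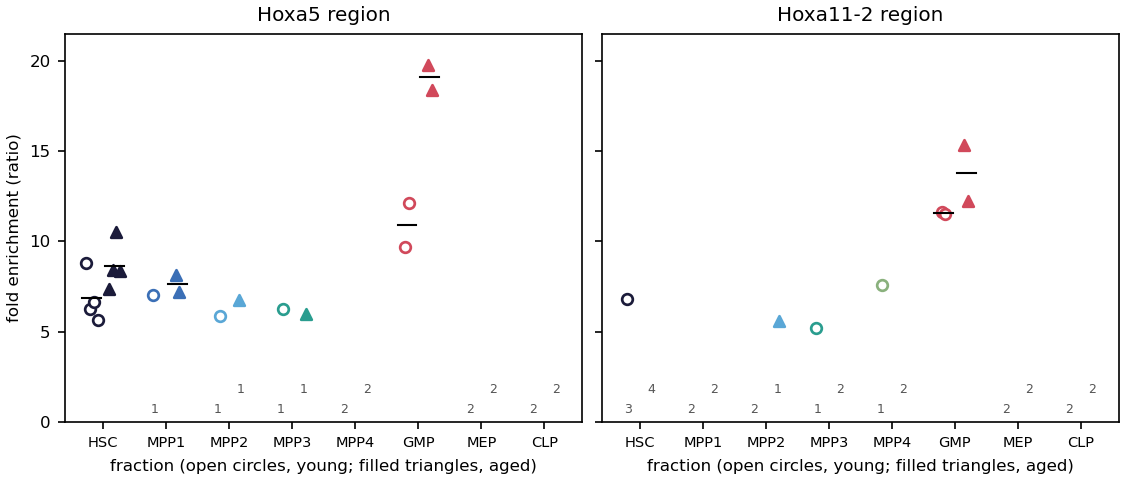
Points give the fold enrichment (ratio) of the Hoxa5 and Hoxa11-2 regions in each library with a call, by fraction and age. Bars mark the mean of groups called in all their libraries, and small grey numbers count the libraries without a call (lower row young, upper row aged). For Hoxa5 the aged GMP points (18.4 and 19.8) lie above the young ones (9.70 and 12.1), and for Hoxa11-2 all GMP points lie above all others.

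Hoxa10, known from uterine development and, in blood, from the control of stem and progenitor cell growth, had a region in its coding exon and another at its 5′ end. The Hoxa10-1 region (chr6:52233926-52234477), 737.5 bp downstream of a TSS, was called in 15 libraries. Its calls fell in 3 of 8 HSC, 3 of 4 MPP1, 1 of 4 MPP2, 3 of 4 MPP3, 2 of 4 MPP4, 1 of 4 GMP and 2 of 4 CLP libraries. Its highest values were in the aged CLPs, 8.10 and 8.30, while neither young CLP library had a call. The only GMP call was at 4.10, in a library with 63288 peaks. It was thus the 1 region of the 10 whose share of calls was lower in GMPs (1 of 4) than in HSCs and MPPs (12 of 24), which did not pass (Fisher's exact test, adjusted p = 1).

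The Hoxa10-2 region (chr6:52240357-52240797), in the 5′ untranslated region 277 bp downstream of another TSS, was called in 13 libraries. These were 4 of 4 GMP, 3 of 8 HSC, 3 of 4 MPP1, 1 of 4 MPP3, 1 of 4 MPP4 and 1 of 4 CLP libraries. In GMPs it had 5.78 and 6.06 in young and 11.9 and 6.61 in aged libraries. The values elsewhere, 4.71 to 7.55, overlapped those of all GMP libraries but the highest. GMPs against HSCs and MPPs (4 of 4 against 8 of 24) gave an adjusted p of 0.0756 in Fisher's exact test.

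The Hoxa4 region (chr6:52191835-52192174) lay 251.5 bp upstream of the TSS of Hoxa4, an axial patterning gene, in introns of longer Hoxa3 transcripts and of the antisense gene Hoxaas3. This region was called in 13 libraries, 4 of 4 GMP, 3 of 8 HSC, 3 of 4 MPP3, and 1 of 4 each of MPP1, MPP4 and CLP. GMP values were 6.17 and 13.6 in young and 9.41 and 11.96 in aged libraries. The MPP3 values were next, 6.90 and 8.74 in young and 10.7 in the 1 aged library with a call, and the 3 HSC values ran from 5.24 to 6.26. The counts of calls in GMPs equalled those of Hoxa10-2, so the adjusted p was the same.

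Hoxa7, another axial patterning gene, had 2 regions. The Hoxa7-2 region (chr6:52221581-52222127), between annotated genes and 3143 bp upstream of the nearest TSS, was called in 14 libraries, among them 4 of 4 GMP and 4 of 8 HSC libraries. In GMPs it had 7.85 and 9.11 in young and 9.73 and 8.33 in aged libraries, above every other value, 3.76 to 6.30. The share of all regions with such a gap was not counted. Of regions called in all HSC and GMP libraries, 67.3% passed the threshold in limma as higher in GMPs than in HSCs and 5.82% as lower. The Hoxa7-2 region is not among them. GMP libraries also had the highest median fold enrichment over all their summits. The calls of Hoxa7-2 in GMPs did not pass (Fisher's exact test, adjusted p = 0.274). The Hoxa7-1 region (chr6:52217512-52217748), 125 bp upstream of a TSS, was called at 5.41 in young HSC replicate 2 and at 5.02 in aged GMP replicate 1, and nowhere else.

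Hoxa3, needed for thymus and parathyroid development, had 1 region (chr6:52211489-52211989), in its intron 1376 bp downstream of a TSS. It was called in 10 libraries of 6 fractions, with values from 4.71 to 7.26 and a median of 5.88. Its calls in GMPs, at 7.16 in a young and 5.19 in an aged library, lay within the range of the others. A region just outside the rule (chr6:52213222-52213530) lay 37 bp upstream of the TSS of Gm28308, a gene model that overlaps Hoxa3, and 261 bp upstream of a Hoxa3 TSS, inside the promoter window of Hoxa3. The rule left it out only because the TSS of Gm28308 is nearer, so the 1 region and 10 calls given for Hoxa3 do not include this promoter. It was called in 7 of 8 HSC, 4 of 4 GMP, 1 of 4 MPP1, 1 of 4 MPP3 and 2 of 4 CLP libraries, 15 in all, more than the 10 of the Hoxa3 region itself. HSCs against MPP1 to MPP4 gave an adjusted p of 0.0917 there in Fisher's exact test.

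In MEPs and CLPs, no HoxA region passed the test against HSCs and MPP1 to MPP4. Over all regions, 11.9% were called less often and 0.69% more often in MEPs, and 1.81% less often and 3.06% more often in CLPs. Hoxa5 came closest in both, with 0 of 4 against 15 of 24 libraries (Fisher's exact test, adjusted p = 0.192 in MEPs and 0.299 in CLPs). In the CLPs, with 27117 to 34205 peaks per library, the 5 calls were all in aged libraries. They were Hoxa10-1 in both, and Hoxa4 at 6.55, Hoxa3 at 5.85 and Hoxa10-2 at 7.15 in replicate 2, so 4 of the 5 came from 1 library. The Hoxa10-1 pattern, a call in both aged and in no young CLP libraries, was shared by 1.98% of the 41474 regions called in any CLP library, while 2.88% were called in both young and in no aged ones. MPP2 libraries divided by age in both directions, with Hoxa3 called in both aged libraries (5.91 and 4.71) and in no young one, and Hoxa7-2 in both young libraries (6.30 and 4.11) and in no aged one. Of the 44880 regions called in an MPP2 library, 3.6% had the first pattern and 2.09% the second. With 2 libraries per age, none of these splits was tested on its own, and no HoxA region passed the test by age over all fractions.

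Whether age changed calls in the cluster was addressed over all fractions with an exact conditional test that took fraction as stratum. No HoxA region passed. Over all regions 0% passed higher and 0% lower in aged libraries, with 611 and 558 at an unadjusted p under 0.05, none of them a HoxA region. The Hoxa10-1 region had the largest difference, called in 9 of 18 young and 6 of 18 aged libraries (exact test, p = 0.498). The Hoxa11-2 and Hoxa7-2 regions were called in 5 and 8 of 18 young and in 3 and 6 of 18 aged libraries. The Hoxa5 region was called in 9 and 10, the Hoxa9 region in 5 and 4, the Hoxa4 and Hoxa10-2 regions in 7 and 6, the Hoxa11-1 region in 2 and 1, and the Hoxa3 and Hoxa7-1 regions in equal numbers.

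In HSCs, the mean number of HoxA regions was 4.75 ± 2.06 in young (SD, n = 4) and 2.25 ± 0.957 in aged libraries (SD, n = 4). The groups overlapped, since young replicate 4 had 2 regions and aged replicates 2 and 4 had 3. Young replicate 3, with the fewest peaks of all HSC libraries (27856), had 5 regions, and young replicate 2, with the most (38756), had 7. With 27087 peaks per library, the means were 3.0 ± 1.41 (SD, n = 4) and 1.75 ± 0.5 (SD, n = 4), again with overlap. The regions called in more young than aged HSC libraries were Hoxa4, Hoxa3, Hoxa7-1, Hoxa7-2, Hoxa9, Hoxa10-1, Hoxa10-2 and Hoxa11-2, by 1 or 2 libraries each, and the Hoxa5 region was called in all. Of the 51625 regions called in any HSC library, 31.1% were called in more young and 25% in more aged libraries, and 17340 were called in all 8. The HoxA regions share their libraries and are not separate observations, and this split of calls within HSCs was not tested. Over the whole series, young HSC libraries had 26701 to 37422 regions called and aged ones 29779 to 30921.

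By age in GMPs, 6 HoxA regions called in all 4 libraries could be compared in log2 fold enrichment with limma, and none passed. Of 43975 regions, 0% passed higher and 0% lower in aged GMPs, with 1572 and 1052 at an unadjusted p under 0.05. The estimates were above 0 for all 6, from 0.09 for Hoxa7-2 to 0.82 for Hoxa5, beside a median over all regions tested of 0.04. For Hoxa5, both aged values exceeded both young ones, with a log2 difference of 0.82 ± 0.19 (SE; limma adjusted p = 0.803). Hoxa10-2 and Hoxa11-2 did not overlap between the ages either (adjusted p = 0.854 and 0.934), while Hoxa4, Hoxa7-2 and Hoxa9 did. Among all regions tested, 20.8% had both aged values above both young ones and 13.3% had them below. Leaving out young GMP replicate 1 turned the estimates of Hoxa4 and Hoxa7-2 below 0, and leaving out aged GMP replicate 1 that of Hoxa7-2. Without aged GMP replicate 1, the estimates went from 0.58 to 0.16 for Hoxa10-2, from 0.24 to 0.08 for Hoxa11-2 and from 0.47 to 0.06 for Hoxa9. Without aged GMP replicate 2 they were 1.003, 0.41 and 0.88 for these regions, and that of Hoxa4 was 0.04. The mean over summits lowered the Hoxa5 estimate to 0.47. In MEPs, CLPs and over HSCs with the MPPs, no HoxA region was called in all libraries of the comparison, and no level could be tested.

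In sequence, the 201 bp around the median summits had a median GC content of 62.4% and a median CpG observed over expected ratio of 0.817. Over all regions these were 49.8% and 0.260, and over promoter regions 63.7% and 0.763. The Hoxa5 window had the lowest GC content of the 10, 42.8%, with a CpG ratio of 1.10, above that of 98.5% of all regions. The Hoxa10-1 window had the highest GC content, 73.1%.

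Of the 8 motifs searched in these windows on both strands, 3 had a match. The C/EBP motif TTGCNNAA, the site of the myeloid factors of that family, matched in the Hoxa5 window on the strand opposite to the gene, where the gene strand reads TTGTGCAA 13 to 6 bp before the median summit, and in the Hoxa7-2 window on the gene strand, and in 13.2% of all regions. The CTCF core CNAGGNGGC, of the insulator protein that separates domains of Hox clusters, matched in the Hoxa3 and Hoxa7-1 windows and in 5.31% of all regions. The ETS motif GGAAGT matched in the Hoxa11-2 window 31 to 26 bp before its summit, and in 32.6% of all regions. The letters of the PBX-HOX motif TGATTNAT, the MEIS motif TGACAG, the RUNX motif TGTGGT, the GATA motif AGATAA and the nuclear receptor half-site AGGTCA were not in any of the 10 windows, and were in 2.63%, 16.1%, 25.6%, 10.3% and 11.6% of all regions. Over promoter regions these shares were 0.654%, 11.2%, 10.6%, 3.72% and 7.14%. The C/EBP, CTCF and ETS motifs were in 6.38%, 9.58% and 22.2% of promoter regions.

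Regulators of the cluster were called in a median of 35 libraries. Of the 11 regulators examined, 5 had the region nearest to their TSS called in all 36 libraries, namely Psip1, Ezh2, Eed, Suz12 and Ctcf. Over promoter regions, 30.2% were called in all libraries. Kmt2a had the lowest count of the 11, with 20 libraries. In HSCs it was called in 1 of 8 libraries, and in MPP1 to MPP4 in 1, 2, 4 and 3 of 4. It was called in 4 of 4 GMP, 1 of 4 MEP and 4 of 4 CLP libraries. Men1, a partner of the methyltransferase encoded by Kmt2a, and Bmi1, a Polycomb subunit gene, were the 2 regulators past the threshold, both called less often in MEPs (1 of 4 and 0 of 4 libraries, beside 24 of 24 HSC and MPP libraries). Over all regions 11.9% passed as called less often in MEPs, so 2 of 11 is not read as a trait of the regulators. The region of Meis1, a cofactor gene, was called in 24 of 24 HSC and MPP, 4 of 4 GMP and 0 of 4 MEP libraries, and passed as called less often in MEPs. None of the 6 neighbouring genes on chromosome 6 passed in any of the 5 comparisons of calls. Hibadh was called in all 36 libraries, and Evx1, a homeobox gene next to the cluster on the Hoxa11 side, in 3.

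Over the 16 groups of fraction and age, the share of HoxA regions called was most like that of Rhbg (Pearson's r = 0.943, 7 regions), Sept9 (0.940, 38 regions), Hap1 (0.940, 5 regions), Rap1gap (0.937, 8 regions) and Dnah12 (0.936, 6 regions), of 7321 genes with at least 5 regions. These are descriptions over 16 group means that share their libraries. The number of peaks per group itself had r = 0.846 with the HoxA share.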

How the data were processed

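The authors sequenced 36 ATAC-seq libraries (single reads of 60 bp, fragments of 240 to 360 bp). Alignment to mm10 used Bowtie2, libraries were brought to an equal number of reads by subsampling, and peaks were called in each with MACS2 2.2.6 at a q-value limit of 0.001. The deposited lists give per summit a fold enrichment (a ratio), a −log10 p-value, a −log10 q-value and a score. No read counts were used here, so the count model of the study was not run, and presence of a peak and log2 fold enrichment were compared instead. No pseudocount was needed, since only called regions enter.

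Entries with 1 interval were joined (1204561 peaks of 1358077 entries). Protein-coding TSSs were taken from the basic set of the mouse GENCODE annotation (release 21), and matched sequence came from RefSeq GRCm38. Peak starts, counted from 0 in the lists, are given from 1. Calls were tested over all 105005 regions with Fisher's exact test or, for age, an exact conditional test with fraction as stratum (scipy 1.17.1). Log2 fold enrichment was tested with limma 3.58.1 (R 4.3.3) over regions called in all libraries of a comparison. P-values were two-sided and adjusted after Benjamini and Hochberg, with a threshold of 0.05. The exact tests by age and in GMPs and the limma fits by age in HSCs and GMPs were tested on simulated data. The number of peaks per library was the measure of list size, and its relation to read counts was not tested.

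Every HoxA region was named, with other genes by the region nearest to their TSS, and the 5 genes most like the cluster by r. Alternatives were peaks with −log10 q of at least 10, equal peak numbers, peaks covering at least 50% of a region, adjustment over regions called in at least 3 libraries, all protein-coding transcripts for the number of regions, centring, mean over summits, a filter on low values, a replicate block, HSC replicates 1 and 2 or 3 and 4 only, and each library left out. The members and lists were chosen with earlier results of these data known. The result of 1 gene is not reported here.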

Additional observations from a re-analysis of the deposited data

How the results depend on the processing

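The number of regions called more often in GMPs (3) was 0 with the strongest 9581 peaks of each library and 1 with the strongest 27087 outside MEP, an alternative chosen after seeing the data, since GMP lists are longer. Leaving out 1 library gave 1 to 3, the lowest without young GMP replicate 2. With peaks of −log10 q of at least 10 it was 4 (Hoxa5, Hoxa7-2, Hoxa9 and Hoxa11-2), of which 2 were among the 3 reported. The single region higher in GMPs than in HSCs in log2 fold enrichment (Hoxa5) could not be tested, leaving 0, with that limit or without the regions of the lowest mean log2 fold enrichment (those at or under its lower quartile). Leaving out young GMP replicate 1 turned the age estimate in GMPs to -0.36 for Hoxa4 (range 0.78 to -0.36) and to -0.0167 for Hoxa7-2, and leaving out aged GMP replicate 1 turned that of Hoxa7-2 to -0.0227 (highest 0.20), none past the threshold. The replicate block left the age estimate of Hoxa5 in HSCs at 0.35 (adjusted p = 0.650, limma) and 0 HoxA regions past the threshold in each comparison by age in which it was fitted. In HSCs, libraries with the same number correlated by 0.05, 0.07, 0.13 and -0.10 in their deviations from the group means over 5335 regions. In fractions with 2 pairs the correlation was 0.24 in GMPs and 0.01 to 0.17 in the others. Since it did not exceed 0.1 in each HSC pair and 2 pairs cannot settle it, the numbers were not taken as pairs. The number of HoxA regions was 9 with that limit, and the comparisons with 0 HoxA regions past the threshold kept 0 under the alternatives run.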
